A study of Mus musculus with 15 samples.

Results

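TH17 cultures grown from STAT3 knockout T cells were compared with TH17 cultures grown from wild-type T cells, 3 libraries against 3, out of 15 libraries in a study of STAT3 and the T cell receptor in TH17 differentiation. The gene table listed 55421 gene models, and the 11874 that reached 1 TPM in at least 3 of the 6 libraries are described. TPM is a transcript level scaled to transcript length and to a fixed total in every library. The knockout genotype is given as STAT3-fl/fl CD4-cre, a floxed Stat3 gene cut by a Cre recombinase driven by Cd4, so the deletion is limited to cells that have expressed Cd4 and can be incomplete. The controls are labelled wild type, and their labels name neither a floxed allele nor Cre. In both groups naive CD4+ T cells, sorted as CD25- with high CD62L and low CD44 from mouse spleen and lymph nodes, were plated on anti-CD3 (2 µg/ml) and anti-CD28 (1 µg/ml). Both received TGFβ at 2.5 ng/ml, IL-1β, IL-6 and IL-23 at 10 ng/ml each, and antibodies to IFNγ and IL-4 at 1 µg/ml each. Both also received DMSO, the solvent control, and were harvested on day 5.

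TH17 cells are CD4+ helper T cells that secrete the cytokines IL-17A, IL-17F, IL-21 and IL-22 and act at mucosal surfaces and in autoimmune inflammation. STAT3 is the transcription factor that relays IL-6, IL-21 and IL-23 signals: Janus kinases phosphorylate it, it enters the nucleus as a dimer, and with other TH17 factors it turns on the TH17 genes. TGFβ without STAT3 signalling favours the regulatory factor FOXP3, and T-bet, the product of Tbx21, directs the alternative TH1 fate marked by IFNγ.

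The knockout libraries differed from the wild-type libraries at every level of expression. A gene is referred to as called where limma's test on log2(TPM + 1), with Benjamini-Hochberg adjustment over 12800 genes, gave an adjusted p below 0.05. Of the 11874 genes, 6180 were called (52.0%), of which 3858 were higher in the knockout (32.5%) and 2322 lower (19.6%). The change was at least 2-fold on that scale, which understates the change of weakly expressed genes, for 1107 genes that rose (9.32%) and 745 that fell (6.27%). All 3 knockout libraries lay above all 3 wild-type libraries for 4013 genes (33.8%) and below them for 2310 (19.5%). The 1107 genes that rose took up 5.29, 5.43 and 5.08% of the TPM in the knockout libraries and 1.74, 1.70 and 1.58% in the wild-type libraries. The 745 that fell took up 2.04, 1.98 and 1.95% against 7.13, 7.16 and 6.84%. Among genes with a mean of 5 to 20 TPM 15.8% were lower and 34.0% higher, among those of 100 to 500 TPM 31.4% and 29.0%, and among those of 500 TPM and above 23.4% and 28.9%.

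**Figure D1:**
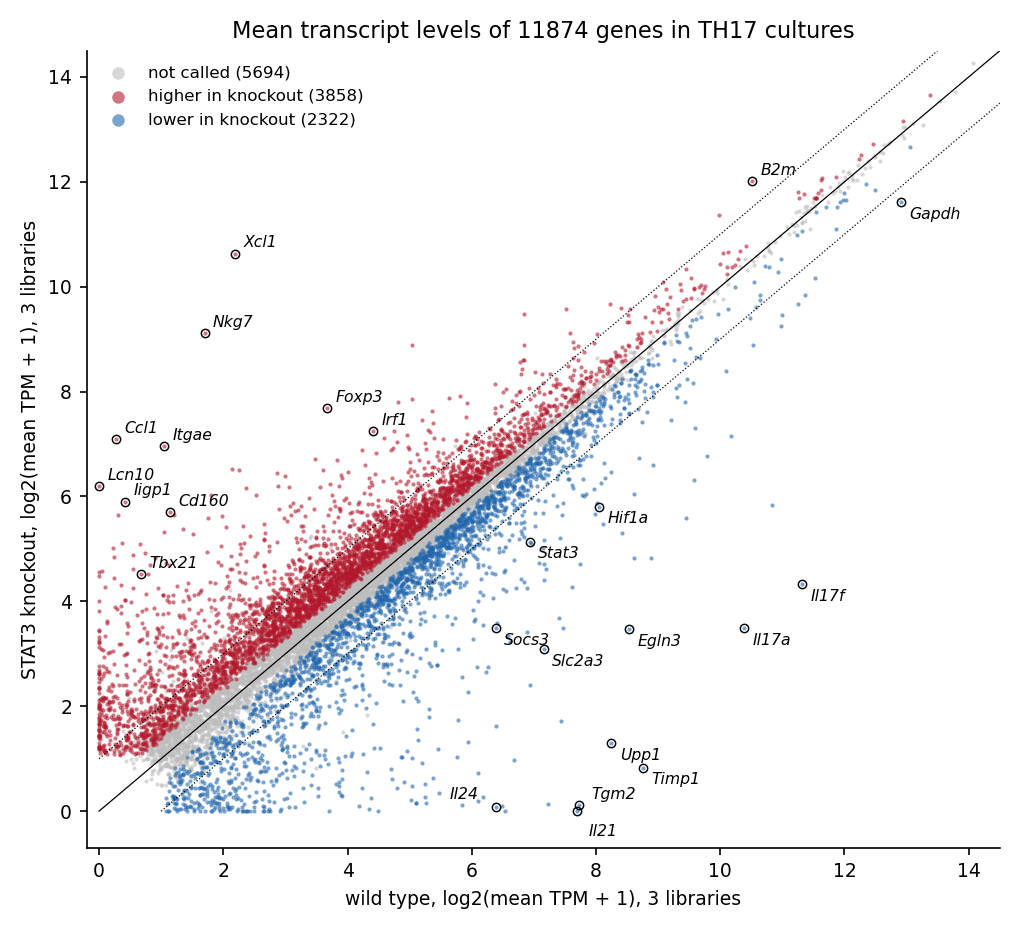
Mean level of each described gene in the wild-type libraries (horizontal axis) and the STAT3 knockout libraries (vertical axis), both as log2(mean TPM + 1) over 3 libraries. Red points were called higher, blue points lower, and grey points were not called; the solid line marks equal levels and the dotted lines a 2-fold difference, and genes discussed in the text are circled, with Il17a and Il17f far below the line and Xcl1 and Nkg7 far above it.

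The median difference over the 11874 genes was 0.13 on the log2 scale. It depended on how the libraries were scaled: over all 12800 genes it was 0.13 with TPM as deposited and 0.01 after scaling by median-of-ratios factors or by quantile normalization. The share of calls that were higher was 62.4% with TPM as deposited, 50.5% after median-of-ratios scaling and 51.4% after quantile normalization, and no call turned to the other direction under either. Differences are best read relative to that shift. Every library sums to the same TPM by construction, so sequencing depth is unknown. The 6 libraries held 11240 to 11889 genes at 1 TPM or more, ribosomal protein transcripts took 26.5 to 30.4% of TPM and mitochondrial transcripts 3.3 to 4.6%. Pearson's r of log2 levels was 0.977 to 0.986 within groups and 0.891 to 0.906 between them. Nothing in the labels says whether the 3 libraries of a group came from separate animals. The spread behind each p-value is that between libraries within groups, pooled over all 15 libraries in 5 groups, and may be technical.

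Stat3 itself was still detected in the knockout cultures, below its wild-type level. Stat3 (chr11:100885098-100939540, minus strand) was 33.5, 38.4 and 30.7 TPM in the 3 knockout libraries and 129.7, 133 and 99.8 TPM in the 3 wild-type libraries. The groups did not overlap and the fall was 3.53-fold, a ratio of mean TPM (-1.78 ± 0.10 SE on the log2 scale, limma adjusted p = 3.75e-09). The table gives 1 value for the whole gene and does not separate the exons that Cre removes from those that remain, so transcripts without the floxed exons and transcripts from cells that kept the gene cannot be told apart. Stat5a, which overlaps the 3′ end of Stat3 on the opposite strand and mediates IL-2 signals, was 116, 134 and 124 TPM against 214, 222 and 147 TPM. It also fell (limma adjusted p = 0.000959). The overlap of the gene models spans chr11:100885098-100885169. Since the strand setting of the counting is not given in the sources used here, reads from this short stretch cannot be assigned with certainty. Stat5b, its close relative and neighbour, was 72.4, 82.5 and 69.4 TPM against 93.3, 96.5 and 69.99 TPM, with overlapping groups and no call (limma adjusted p = 0.136), but it was called lower after median-of-ratios scaling and without the third wild-type library (-0.33 and -0.34 on the log2 scale).

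The JAK and STAT genes, Stat3 included, moved in both directions, with 3 of 11 higher, 5 lower and a median of -0.20. Stat4, which relays IL-12, fell from 25.9 ± 2.34 to 10.8 ± 2.14 TPM (mean ± SD, n = 3, as in later pairs of means), and Jak3, the kinase of the common γ chain, fell from 140.0 ± 11.6 to 50.3 ± 2.88 TPM. Among the feedback inhibitors, Socs3, an established STAT3 target, was 10.4, 9.63 and 10.7 TPM in the knockout and 78.6, 88.5 and 80.3 TPM in the wild type, an 8.05-fold fall (limma adjusted p = 5.69e-13). Cish, Socs2 and Socs1, which restrain γ-chain and interferon receptors, fell 3.37-fold, 2.65-fold and 2.36-fold. Pias3, an inhibitor of STAT3 DNA binding, rose 2.42-fold, from 6.56 ± 1.36 to 15.9 ± 0.626 TPM. Over the 14 inhibitor genes 6 were higher and 5 lower with a median of 0.08, and the balance tipped to 3 higher and 6 lower, median -0.04, after median-of-ratios scaling.

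**Figure D2:**
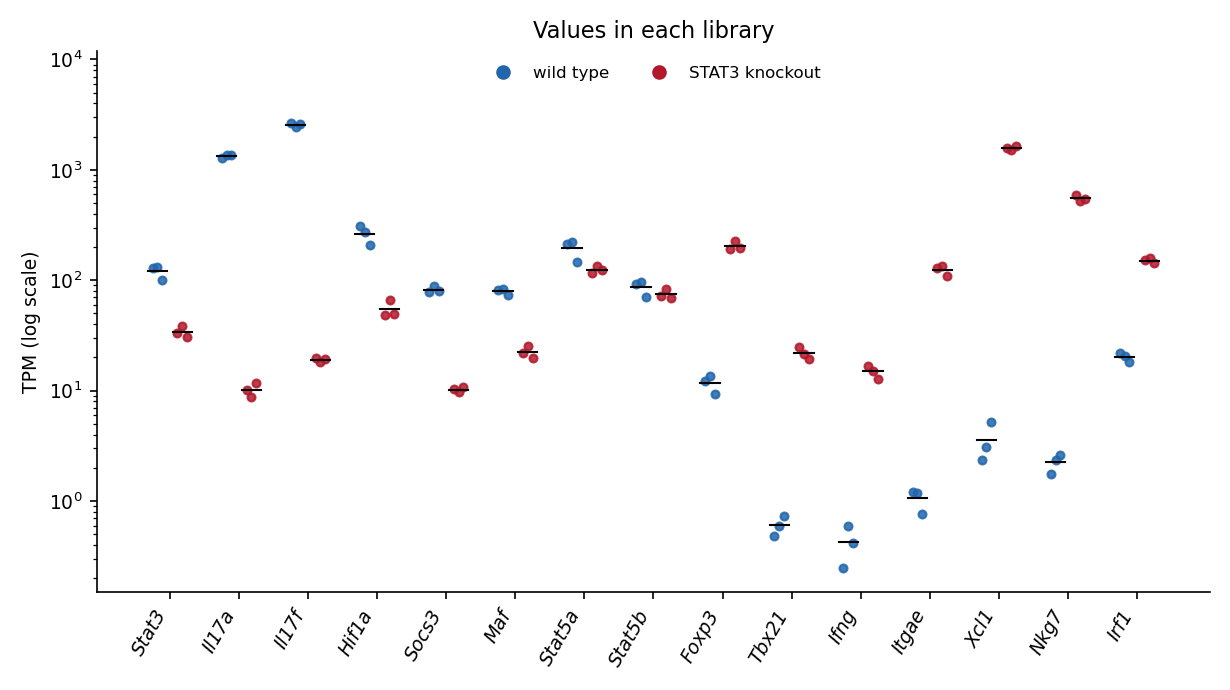
TPM of 15 genes in each library on a log axis, wild type in blue and STAT3 knockout in red, with black bars at the means of 3 libraries. Of the genes shown, Stat5b is the only one whose groups overlap.

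The TH17 cytokines had the lowest median of the 60 gene programs listed. Of 14 genes, 12 fell, 1 rose and the median was -2.30. Il17a (chr1:20730905-20734496), the signature cytokine, was 10.1, 8.76 and 11.7 TPM in the knockout libraries against 1279.8, 1356 and 1378 TPM in the wild type. Il17f (chr1:20777146-20790617, minus strand), its neighbour and partner in the IL-17 heterodimer, was 19.6, 18.2 and 19.4 TPM against 2646, 2429 and 2579 TPM. The 2 genes fell by nearly the same factor, 132-fold and 134-fold (limma adjusted p = 2.8e-14 and 1.46e-13), and both stayed detectable in every knockout library. Il21, which sustains TH17 cells through STAT3, was at 238, 209.6 and 168 TPM in the wild type and was listed at 0 in every knockout library (limma adjusted p = 4.43e-14). Il22, which acts on epithelium, was 0, 0 and 0.08 TPM against 5.25, 6.67 and 5.12 TPM, and Il24, another member of the IL-10 family, was 0.08, 0.08 and 0 TPM against 81, 81.95 and 85.3 TPM. For both, the knockout values were at or near 0 and no fold is read from them. Lif, an IL-6 family cytokine, fell 28.3-fold from 121 ± 22.7 to 4.29 ± 0.939 TPM. The growth factor Il2 fell 9.69-fold from 33.4 ± 2.91 to 3.45 ± 0.82 TPM, and Csf2, encoding the inflammatory cytokine GM-CSF, fell 4.21-fold. Il10, an anti-inflammatory cytokine, was 0.79, 0.64 and 0.66 TPM against 4.7, 5.39 and 5.24 TPM and fell 7.33-fold. Ccl20, the chemokine that recruits CCR6+ cells, fell less, from 137 ± 7.26 to 82.7 ± 2.17 TPM. The single member that rose was Ebi3, a subunit of IL-27 and IL-35, at 10.3 ± 1.68 against 6.73 ± 1.38 TPM, and it was not called after quantile normalization (0.34).

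Of 17 TH17 transcription factors, 13 fell, 2 rose and the median was -1.47. Rora, a nuclear receptor that promotes the TH17 fate, was 1.34, 2.48 and 1.41 TPM in the knockout and 8.89, 7.41 and 4.05 TPM in the wild type, a 3.89-fold fall with no overlap (limma adjusted p = 0.000132). Maf, which controls Il10 and Il21, was 21.9, 25.2 and 19.9 TPM against 81.9, 83.5 and 73.2 TPM, and Hif1a, the oxygen-regulated factor that also binds the Il17a locus, was 48.3, 66.7 and 49.95 TPM against 313, 272 and 211 TPM. Both groups were well separated, with falls of 3.56-fold and 4.82-fold. The pioneer pair Batf and Irf4 fell 2.09-fold and 3.6-fold. Fosl2, an AP-1 factor of the TH17 network, fell 11.6-fold from 66.7 ± 14.1 to 5.73 ± 1.33 TPM. Bhlhe40, needed for GM-CSF, fell 4.46-fold and Id2, an inhibitor of E proteins, 3.47-fold. The 2 factors that rose were Ikzf3, encoding Aiolos, from 20.8 ± 5.92 to 85.2 ± 15.4 TPM, and Runx1, from 17.7 ± 0.936 to 51.1 ± 14.3 TPM. Ahr, the aryl hydrocarbon receptor required for Il22, was 3.35, 5.34 and 4.12 TPM against 6.36, 6.45 and 4.51 TPM and was not called (limma adjusted p = 0.0743), but was called lower after median-of-ratios scaling, without the second knockout library or without the third wild-type library (-0.48, -0.51 and -0.51).

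Genes linked to STAT3 as targets in T cells or other cell types fell with the TH17 factors: 15 of 17 were lower, 1 was higher and the median was -1.46. Pim1, a survival kinase, was 62.95, 67.1 and 65.8 TPM in the knockout and 418, 408 and 351 TPM in the wild type, a 6.01-fold fall (limma adjusted p = 5.69e-13). Bcl3, a nuclear IκB protein, fell 5.3-fold, Nfil3, a bZIP repressor, 5.71-fold, and Junb, the AP-1 subunit needed for stable TH17 identity, 3.09-fold. The member that rose was Il6st, encoding gp130, the signal chain shared by IL-6 family receptors, at 17.6, 23.7 and 16.98 TPM against 7.28, 7.21 and 3.37 TPM. Il6ra, the IL-6-binding chain, was 18.7 ± 4.52 against 21.7 ± 6.06 TPM and was not called (limma adjusted p = 0.426), but was called lower without the third wild-type library (-0.43). This list shares members such as Fosl2 with the lists above and shows no separate evidence for them.

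The STAT-type letters TTCNNNGAA were searched on both strands in the 250 bases upstream of the start site, in RefSeq promoters of build GRCm38.p6. Of the 16 genes of this list with a promoter in the table, 3 held them, against 8.13% of all 27025 genes of the table and 7.17% of the 8886 described genes that matched. A gene was counted if any of its listed promoters held the letters. A match describes letters in a sequence and does not show binding.

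Receptors for the cytokines in the medium did not move as a block. Il23r, the receptor chain that stabilises TH17 cells, was 0, 0.03 and 0.15 TPM in the knockout and 9.69, 8.06 and 4.13 TPM in the wild type, and its partner chain Il12rb1 fell 4.79-fold from 63.6 ± 9.73 to 13.3 ± 1.35 TPM. Il1r1, the receptor for IL-1β, was 0.13, 0.12 and 0.09 TPM against 3.54, 3.34 and 2.7 TPM. Il23r and Il1r1 were thus near 0 in the knockout, while Il12rb1 was lower but still measurable, in medium that supplied both cytokines. Both TGFβ receptor chains rose, Tgfbr1 from 5.32 ± 1.51 to 34.9 ± 7.26 TPM and Tgfbr2 from 24.1 ± 5.07 to 44.5 ± 3.49 TPM, while Smad3, the TGFβ signal mediator, fell 4.15-fold. Il18r1, the IL-18 receptor chain, was 62.4, 88.97 and 66.1 TPM against 16.6, 13.9 and 10.47 TPM. Among the γ-chain receptors 6 of 8 genes fell and 1 rose: Il2ra, the high-affinity IL-2 chain CD25, fell from 692 ± 109 to 372 ± 46.8 TPM, Il4ra fell 3.52-fold, and Il7r 3-fold, while Il9r rose from 0.04 ± 0.0693 to 3.54 ± 0.368 TPM.

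The knockout cultures expressed the regulators of other helper fates. Foxp3 (chrX:7573644-7595245), the regulatory T cell factor, was 192, 225 and 197 TPM in the knockout libraries. The wild-type libraries held 12.2, 13.6 and 9.37 TPM. Foxp3 was as high, at 204 ± 8.37 TPM, in the wild-type TH17 cultures given Srci1, which had the same cytokines and antibodies. In the DMSO-treated wild-type Treg cultures of the same study the mean was 130.0 TPM. The Treg cultures were grown in another medium, with less TGFβ, with added IL-2 and with no IL-1β, IL-6 or IL-23 listed. Their values, here and below, are therefore not a like-for-like reference for the TH17 cultures. Tbx21 (chr11:97098071-97115331, minus strand), encoding T-bet, was 24.7, 21.7 and 19.3 TPM against 0.48, 0.6 and 0.73 TPM (limma adjusted p = 1.04e-11). Ifng, the cytokine it controls, was 16.9, 15.1 and 12.7 TPM against 0.25, 0.6 and 0.42 TPM (limma adjusted p = 9.8e-07). Neither gene overlapped between groups, and every wild-type library held both below 1 TPM. Both cultures contained antibody to IFNγ. In bulk RNA a smaller share of cells of a type and less RNA per cell cannot be told apart, so these levels do not say how many cells expressed each factor.

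Of the 17 genes of the TH1 list, 13 rose and 4 fell, with a median of 2.31. Xcl1, a chemokine of activated T and NK cells, was 1588, 1513 and 1652 TPM against 2.37, 3.09 and 5.2 TPM. At 446-fold it was the largest rise on the log2 scale among genes above 5 TPM (8.49 ± 0.18 SE). The inflammatory chemokines Ccl3, Ccl4 and Ccl5 rose 7.76-fold, 7.23-fold and 5.42-fold, and Cxcr3, a TH1 homing receptor, 7.66-fold. Fasl, the death ligand, rose from 1.04 ± 0.19 to 9.26 ± 2.34 TPM. The 4 genes that fell do not share the direction of the list: Il12rb2, the IL-12 receptor chain, was 1.1, 1.39 and 0.65 TPM against 35.3, 29.5 and 18.9 TPM, Stat4 and Runx3 fell 2.4-fold and 2.53-fold, and Hlx fell from 2.9 ± 0.768 to 0.19 ± 0.151 TPM. The knockout libraries thus had more Tbx21 and chemokine transcripts together with fewer transcripts for the IL-12 receptor chains and Stat4.

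The Treg list split, with 9 of 19 genes higher, 8 lower and a median of 0.19 (8 higher and 9 lower, median 0.06, after median-of-ratios scaling). Itgae, encoding the CD103 integrin chain, was 128, 135 and 109.6 TPM in the knockout and 1.22, 1.19 and 0.77 TPM in the wild type, with 0.3 TPM in the Treg cultures. Tigit, an inhibitory receptor, rose 7.51-fold, Ikzf2, encoding Helios, 17.3-fold to 5.92 ± 1.74 TPM, and Penk, a neuropeptide precursor, 58.5-fold. Against these, Ctla4, the CD28 antagonist, fell from 410.0 ± 56.9 to 203 ± 25 TPM, Tnfrsf4, encoding OX40, 2.04-fold, and Lrrc32, which anchors latent TGFβ, 2.9-fold. Foxp3 was thus high while CD25, CTLA-4, OX40 and IL-10 transcripts were each lower than in the wild-type TH17 cultures. Genes of naive and memory T cells leaned higher, 10 of 18 with 5 lower and a median of 0.56. Cd27 rose 4.34-fold, Foxp1, a quiescence factor, 3.99-fold, and Klf2, which controls trafficking, 3.23-fold, whereas Satb1, a chromatin organiser, was 28.4, 28.6 and 24.8 TPM against 438, 415 and 321 TPM. Gata3, the TH2 factor, rose from 4.36 ± 0.642 to 7.75 ± 0.934 TPM, while Il4 was listed at 0 in the knockout and averaged 4.2 ± 1.56 TPM in the wild type.

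The interferon-response genes rose together. Every described member of the interferon-inducible GTPase list rose, 17 of 17 with a median of 2.07, as did all 16 genes of MHC class I and antigen processing with a median of 1.21. Of 22 other interferon-stimulated genes 20 rose and 1 fell, with a median of 1.20. The counts were 17, 16 and 17 after median-of-ratios scaling. The GTPases disrupt vacuoles that hold intracellular microbes. Irgm1 was 80.9, 85.4 and 74.2 TPM against 15.7, 14.1 and 12.6 TPM, Gbp6 rose 37.5-fold from 1.3 ± 0.572 to 48.9 ± 8.95 TPM, and Iigp1 was 46.6, 71.1 and 58.5 TPM against 0.45, 0.31 and 0.24 TPM. Gbp10 was listed at 0 in every wild-type library and averaged 9.96 ± 3.03 TPM in the knockout. Members of the Gbp family and the Tgtp1 and Tgtp2 pair are near-identical copies between which reads may be split, and Igtp and Irgm2 are annotated as overlapping models, so single values in these families are uncertain. Irf1, the interferon-response factor, was 153, 158 and 143 TPM in the knockout and 22.03, 20.7 and 18.1 TPM in the wild type, a 7.44-fold rise (limma adjusted p = 8.38e-12).

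B2m, the invariant chain of all MHC class I molecules, was 4072, 4247 and 4054 TPM against 1515, 1362 and 1488 TPM and was among the 10 most abundant transcripts of the knockout outside ribosomal protein and mitochondrial genes. Psmb9, an immunoproteasome subunit, was 197, 188 and 201 TPM against 33.9, 43.9 and 42.4 TPM. The heavy chains H2-K1 and H2-D1 rose 2.62-fold and 2.01-fold, the peptide transporter Tap1 3.69-fold, and Nlrc5, the activator of MHC class I transcription, 2.58-fold. H2 genes are close paralogs, which makes the single heavy-chain values uncertain. Among the other interferon-stimulated genes Irf7 rose 4.31-fold, Irf9 2.36-fold and Zbp1, a nucleic acid sensor, 2.4-fold. Bst2, which tethers budding virus, was the exception at 92.8, 86.4 and 122 TPM against 104.7, 142 and 164 TPM (limma adjusted p = 0.0361), a fall no longer called when any of 4 of the 6 libraries was left out.

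The same 250 bases were searched for GAAANNGAAA, the interferon response type, and for the STAT type TTCNNNGAA, and the 2 can overlap in a shared GAA. Of 10 GTPase genes with a promoter in the table, 9 held the interferon letters and 6 the STAT letters. The sequences around the interferon letters are nearly the same in Igtp and Irgm2, and in Tgtp1 and Tgtp2, so these matches are not all separate occurrences. The shares were 3.46% and 8.13% over all 27025 genes of the table, 3.36% and 7.17% over the 8886 described genes that matched, 8.05% and 7.41% over the 783 matched genes that rose at least 2-fold, and 5.23% and 8.11% over the 555 that fell at least 2-fold. Each motif was held by 5 of 14 matched interferon-stimulated genes, which averaged 1.43 listed promoters per gene, against 1.28 for the described genes. Of the 14 matched MHC class I genes 3 held the interferon letters. Windows of 80 bases follow for 4 genes of these groups that rose, because they show where the letters stand. Capitals mark the matched letters, GAAANNGAAA in the first 3 and TTCNNNGAA in Irf1, and all 4 run 5′ to 3′ on the plus strand, at chr11:58199476-58199555, chr11:58214878-58214957, chr2:122147513-122147592 and chr11:53769888-53769967.
Igtp: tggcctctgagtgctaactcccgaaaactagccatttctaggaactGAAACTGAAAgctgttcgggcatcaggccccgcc
Irgm2: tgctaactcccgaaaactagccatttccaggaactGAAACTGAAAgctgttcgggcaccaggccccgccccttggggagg
B2m: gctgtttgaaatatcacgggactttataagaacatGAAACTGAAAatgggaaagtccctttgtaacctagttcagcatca
Irf1: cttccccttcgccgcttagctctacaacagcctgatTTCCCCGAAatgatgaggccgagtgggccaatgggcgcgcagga
The 3′ ends of the windows lie 1 base before the RefSeq start for Igtp, 20 for Irgm2, 47 for Irf1 and 95 for B2m. The Irgm2 window lies inside the longer GENCODE gene. Igtp rose 3.49-fold, Irgm2 3.58-fold, B2m 2.83-fold and Irf1 7.44-fold.

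**Figure D3:**
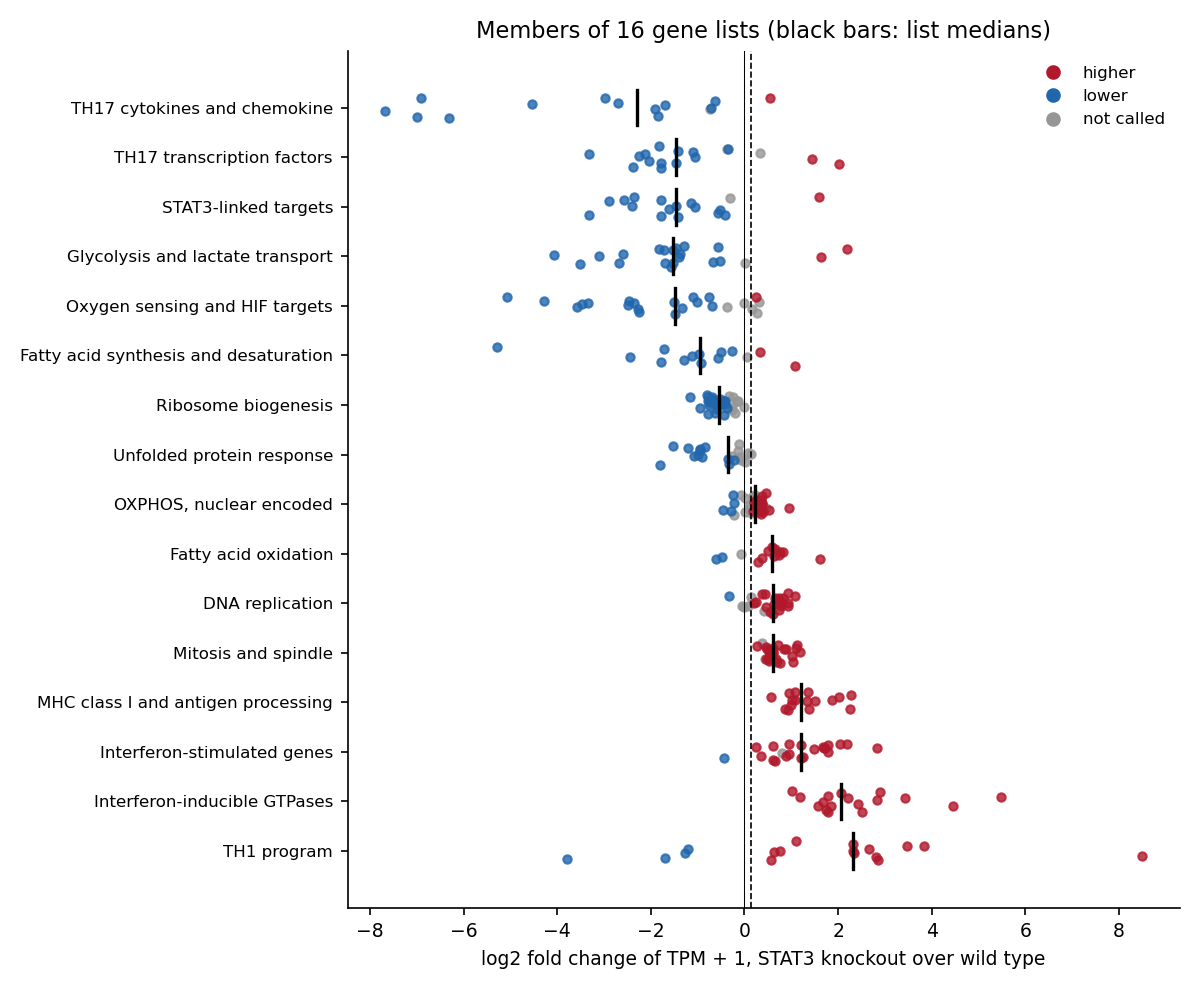
Log2 fold change of TPM + 1, STAT3 knockout over wild type, for each described member of 16 gene lists (red called higher, blue called lower, grey not called), with black bars at list medians and a dashed line at the median of all described genes, 0.13. The TH17, glycolysis and HIF lists sit to the left, with medians between -2.30 and -1.46, and the interferon GTPase and TH1 lists to the right, at 2.07 and 2.31.

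MHC class II genes, which mouse T cells express little, rose in 5 of 7 cases and fell in 1. Cd74, the invariant chain, was 169.8, 144 and 147 TPM against 33.9, 37.5 and 43.8 TPM and H2-Aa was 13.5, 11.8 and 15.4 TPM against 1.03, 0.8 and 0.69 TPM, but H2-Ab1, encoding the partner chain of H2-Aa, went the other way at 13.1, 9.38 and 9.8 TPM against 64.6, 74.1 and 75.8 TPM. Transcripts of the B lineage were also higher in the knockout libraries. Of 11 B cell markers 6 were described, of which 5 rose and 1 fell, and the 11 together summed to 700.0 to 803 TPM in the knockout and 116 to 120.0 TPM in the wild type, mostly from Ighm, the immunoglobulin μ constant gene (711 ± 53.5 against 114 ± 2.67 TPM). The defining B cell markers stayed low: Cd79b was 8.1 ± 0.916 against 0.25 ± 0.106 TPM and Cd79a 3.15 ± 0.29 against 0.247 ± 0.0723 TPM, while Ms4a1, Pax5 and Cd22 averaged below 0.3 TPM in both groups. The immunoglobulin variable segments in the table, examined after their values were seen, together summed to 175, 192 and 210.0 TPM in the knockout against 5.47, 2.29 and 4.94 TPM in the wild type. The 13 constant genes summed to 907, 841 and 796 TPM against 126, 131 and 139 TPM. They summed to 571, 533 and 565 TPM in the wild-type TH17 cultures given Srci1, in which the variable segments summed to at most 6.44 TPM. Those cultures had the same cytokines and antibodies, and their labels name Srci1 where those of the wild-type controls name DMSO. The part of B-lineage transcripts in the MHC class I and class II values was not tested.

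Defining markers of other cell types were mostly at or near 0. Of 13 myeloid and dendritic markers 4 were described, 3 higher and 1 lower, and all 13 summed to 169 to 197 TPM in the knockout and 106 to 124 TPM in the wild type, mostly from Cd74 and H2-Ab1. The 3 rises and the 1 fall were each at least 2-fold. Among the markers that were not described, Tyrobp was listed at 0 while Lyz2, Csf1r and Itgax averaged below 0.1 TPM in both groups. Of 10 CD8 T and NK markers 6 were described, 3 higher and 1 lower, and all 10 together summed to 28.3 to 31.7 TPM in the knockout and 57.5 to 60.7 TPM in the wild type. Klrd1, an NK receptor chain, held most of that sum in the wild type and fell from 42.8 ± 1.88 to 1.27 ± 0.501 TPM. Cd8a was 4.74 ± 0.592 against 0.0167 ± 0.0289 TPM, and the NK markers Ncr1 and Klra1 were listed at 0 in all 6 libraries. Of 6 γδ T cell markers 3 were described, 2 higher and 1 lower. All 6 summed to 16.6 to 20.7 TPM in the knockout and 5.97 to 6.86 TPM in the wild type. Of 6 mast cell markers only Kit was described, which rose from 2.47 ± 0.459 to 7.68 ± 0.707 TPM. None of 8 red cell and platelet markers was described. Of 6 stromal and epithelial markers 2 were described and both rose, the adhesion molecules Epcam from 2.91 ± 0.702 to 32.1 ± 1.75 TPM and Pecam1 from 32.5 ± 3.17 to 88.6 ± 7.77 TPM. Zbtb7b, encoding ThPOK, the factor that holds the CD4 lineage and represses CD8 genes, was chosen after its values were seen and fell from 85.3 ± 7.22 to 31.3 ± 7.77 TPM. Of 8 CD4 T cell markers 4 rose and 1 fell (2 and 1 after median-of-ratios scaling), with Cd4 at 210.0 ± 13.1 against 276 ± 52.9 TPM and Cd3e at 397 ± 29.7 against 198 ± 2.45 TPM, so the labelled cell type's markers were present in both groups. Xist, expressed from the inactive X chromosome, and 4 Y-linked genes were all detected in every library. None was called, though Xist, at 68.1 ± 18.7 against 44.5 ± 18.7 TPM, was called higher without the first knockout or the first wild-type library (0.83 and 0.94).

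Cytotoxic genes were divided, with 6 of 13 higher, 5 lower and a median of 0.00 (-0.12 after median-of-ratios scaling). Nkg7, a granule membrane protein, was 593, 521 and 539.5 TPM in the knockout and 1.76, 2.34 and 2.64 TPM in the wild type, with 179 TPM in the Treg cultures. Gzmk, a granzyme, was 20.5, 24.97 and 18.4 TPM and listed at 0 in every wild-type library, and Prf1, encoding perforin, rose from 0.753 ± 0.291 to 6.28 ± 0.0854 TPM. Gzmb, the main granzyme of killer cells, was level at 6.85 ± 0.485 and 6.84 ± 0.293 TPM. The protease inhibitor Ctla2a, a close paralog of Ctla2b, was 29.9, 25.9 and 26.3 TPM against 481, 462 and 472 TPM, and Srgn, the granule proteoglycan, fell 3.15-fold.

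Of 19 co-stimulatory and checkpoint receptors 12 rose and 3 fell, with a median of 0.42, and 9 rose and 4 fell after median-of-ratios scaling. Cd160 was 48.1, 53.3 and 51.3 TPM against 1.06, 1.13 and 1.4 TPM, Cd96 rose 13.7-fold and Pdcd1, encoding PD-1, 4.7-fold. The ectoenzymes that convert extracellular ATP to adenosine, Nt5e and Entpd1, rose 4.89-fold and 4.32-fold. The co-stimulator Icos fell 2.1-fold, and Cd28 was 83.5 ± 14.1 against 88.7 ± 18 TPM without a call. In the TNF superfamily 13 of 23 genes fell and 5 rose (78.3% called, against 52.0% of all described genes). Tnfrsf8, encoding CD30, was 1.83, 1.24 and 1.39 TPM against 65.9, 64.5 and 50.6 TPM, and Tnfrsf25, encoding the receptor DR3, fell 3.77-fold. Tnfsf10, encoding TRAIL, was 16.1, 21.4 and 16.9 TPM against 0.51, 0.6 and 0.28 TPM and rose.

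Migration receptors changed in 16 of 17 cases, 8 in each direction. Ccr2, a receptor for inflammatory chemokines, fell to near 0, at 0.127 ± 0.0945 against 8.87 ± 2.71 TPM. Gpr15, a colon homing receptor, fell 6.35-fold, Gpr183, an oxysterol receptor, 8.4-fold and Cxcr4 3.09-fold. Ccr7, which directs T cells to lymph nodes, rose from 369 ± 10.9 to 638 ± 49.4 TPM, and Ccr6, usually taken as a TH17 receptor, rose from 28.1 ± 8 to 66.7 ± 10.3 TPM although its ligand gene Ccl20 fell. Of the integrins, Itga3 fell 14.1-fold from 74.4 ± 15.3 to 5.27 ± 0.6 TPM, and Itga6 and Itga4 rose 3.87-fold and 3.08-fold.

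T cell receptor genes shifted little as a group. Of 28 genes of the receptor complex and its signalling 14 rose and 5 fell, with a median of 0.19, close to that of all genes (11 and 7 after median-of-ratios scaling). Dgkz, which dampens diacylglycerol signals, rose 2.83-fold from 92.7 ± 9.7 to 263 ± 21.9 TPM, and Malt1, the paracaspase of the NF-κB pathway, fell 4.1-fold. Of 20 genes induced by receptor signals 13 rose and 5 fell. Egr2 and Nfatc1 rose 2.81-fold and 2.35-fold, Ier3 was 1.2, 0.69 and 0.81 TPM against 33.6, 36.2 and 37.6 TPM and fell, and Myc, the growth factor-induced oncoprotein, was 163, 164 and 158 TPM against 240.0, 263 and 274 TPM and fell. Cd69, an early activation marker, was 89.7 ± 7.19 against 88.1 ± 6.75 TPM and was not called (limma adjusted p = 0.867). AP-1 genes were mostly lower, 9 of 15 with 3 higher and a median of -0.53: Batf3 fell from 24.9 ± 3.42 to 0.747 ± 0.396 TPM, while Fosb and Jun rose 6.42-fold and 1.5-fold.

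**Figure D4:**
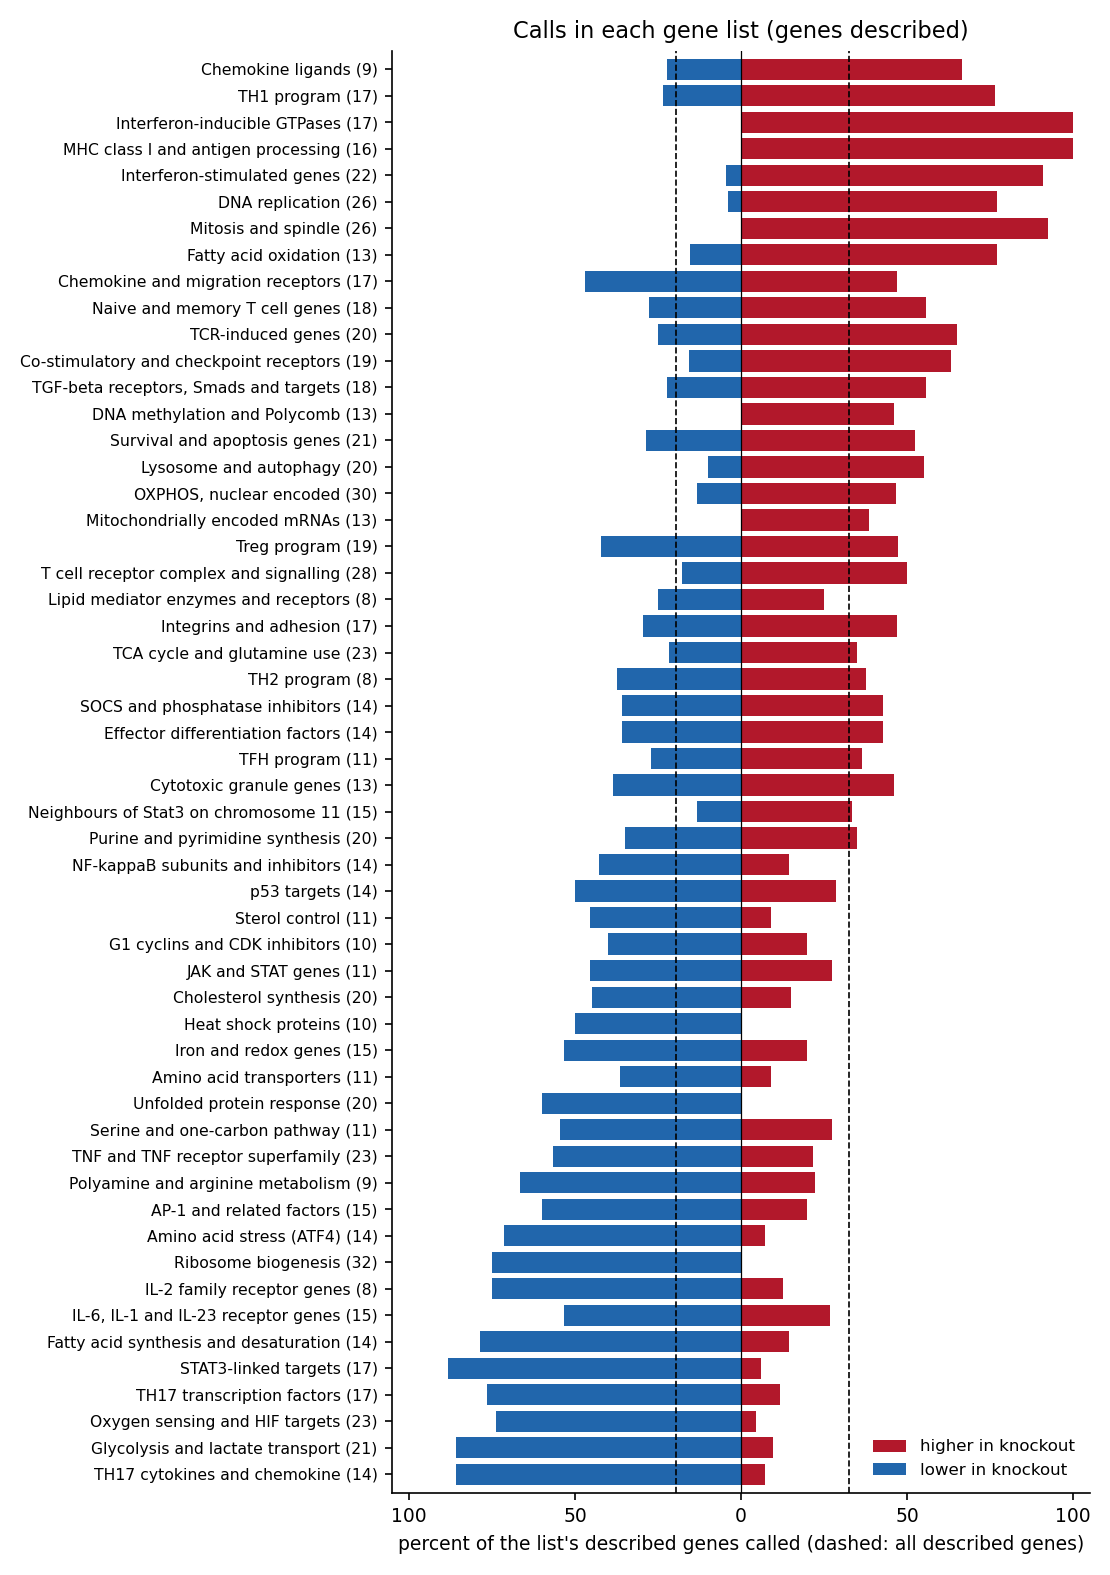
Percent of each gene list's described members called higher (red, to the right) or lower (blue, to the left) in the knockout, ordered by list median, for lists with 8 or more described genes (number in brackets). Dashed lines mark the shares over all described genes, 32.5% higher and 19.6% lower, and the bars of most lists pass only 1 of these lines.

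The glycolytic pathway fell nearly as a whole. Of 21 genes of glycolysis and lactate transport 18 fell and 2 rose, with a median of -1.53. Slc2a3, a glucose transporter, was 6.8, 9.05 and 6.65 TPM in the knockout and 155, 154 and 116 TPM in the wild type, an 18.9-fold fall, and Hk2, the first enzyme of the pathway, was 7.4, 7.97 and 7.2 TPM against 61.5, 58.3 and 42.6 TPM. Pgk1 was 637, 606 and 580.2 TPM against 2104, 1969 and 1947 TPM, and Ldha, which makes lactate, 1226, 1094 and 1110.1 TPM against 2987, 2918 and 2927 TPM. The groups were apart for all 4. Gapdh, often used as a loading control, was 3295, 2935 and 3190.5 TPM against 7279.7, 7991 and 7911 TPM, the third most abundant transcript of the wild type outside ribosomal protein and mitochondrial genes. Slc16a3, the lactate exporter, fell 8.83-fold. The 2 genes that rose were isoforms of enzymes on the same pathway: Ldhb was 55.2, 47.8 and 48.4 TPM against 15.7, 14.2 and 16.6 TPM and Eno3 rose 4.95-fold from 8.56 ± 1.94 to 42.3 ± 4.5 TPM.

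Oxygen-sensing genes and targets of the hypoxia factor HIF fell in 17 of 23 cases, with 1 higher and a median of -1.49. Egln3, a prolyl hydroxylase that marks HIF for destruction, was 10.4, 10.96 and 8.83 TPM against 389.8, 374 and 346 TPM (limma adjusted p = 9.31e-15). Bnip3, a mitophagy receptor, was 18.2, 16.4 and 20.5 TPM against 189, 195 and 199 TPM, and Vegfa, the angiogenic factor, fell 17.1-fold from 33.8 ± 3.59 to 1.98 ± 0.894 TPM. Vhl, the ligase subunit for HIF, was the member that rose (0.25), and it was no longer called after median-of-ratios scaling (0.12) or when any of 4 of the 6 libraries was left out. Arnt, the constitutive partner of HIF-1α, was 25.3 ± 2.95 against 21.3 ± 4.52 TPM and was not called, except without the first wild-type library (0.38).

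The hypoxia response letters ACGTG, searched on both strands in the same 250 bases, were held by 10 of 20 matched glycolysis genes and 13 of 21 matched HIF targets. The share was 18.5% over the whole promoter table, 25.7% over the matched described genes, 28.6% over the 555 matched genes that fell at least 2-fold and 26.6% over the 4128 that were not called. The glycolysis and HIF genes averaged 1.55 and 1.43 listed promoters per gene, against 1.28 for the described genes and 1.22 for the whole promoter table. More promoters give more places for a match, and the part of this in the shares was not tested. These letters also lie within CACGTG, the E-box of the MYC family. Windows of 80 bases follow for 4 genes of these lists that fell, with the matched letters in capitals on either strand, at chr7:46845718-46845797 and chrX:106186931-106187010 on the plus strand, and chr7:138909572-138909651 and chr6:82774465-82774544 on the minus strand (GRCm38.p6, RefSeq).
Ldha: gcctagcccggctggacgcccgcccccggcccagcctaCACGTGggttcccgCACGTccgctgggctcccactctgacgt
Pgk1: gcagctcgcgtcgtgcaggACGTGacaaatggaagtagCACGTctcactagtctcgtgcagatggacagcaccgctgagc
Bnip3: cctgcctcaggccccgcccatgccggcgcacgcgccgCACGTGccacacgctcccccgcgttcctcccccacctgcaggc
Hk2: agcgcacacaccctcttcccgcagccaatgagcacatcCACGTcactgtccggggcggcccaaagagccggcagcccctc
The Ldha window holds 3 matches, those of Pgk1 and Bnip3 hold 2 each and that of Hk2 holds 1. The Ldha window lies inside the longer GENCODE gene. On the log2 scale the differences were -1.37 for Ldha, -1.72 for Pgk1, -3.34 for Bnip3 and -2.68 for Hk2.

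Genes of ribosome biogenesis and fatty acid synthesis were mostly lower and those of fatty acid oxidation mostly higher. Of 32 ribosome biogenesis genes 24 fell and none rose, with a median of -0.55, and 30 fell after median-of-ratios scaling. Rrp12, a ribosome export factor, was 14.8, 15.6 and 13.6 TPM against 36.8, 35.4 and 30.4 TPM, Bop1 fell 1.96-fold and Nop56 1.7-fold, whereas Npm1, nucleophosmin, was level at 1545 ± 171 and 1540.0 ± 127 TPM. In fatty acid synthesis 11 of 14 genes fell and 2 rose, with a median of -0.95. Scd1, the stearoyl-CoA desaturase, was 0.88, 0.51 and 0.57 TPM against 99.8, 66.6 and 37.4 TPM, and its relative Scd2, Fasn, encoding fatty acid synthase, and Fads2 fell 3.49-fold, 1.99-fold and 6.46-fold. In fatty acid oxidation 10 of 13 genes rose and 2 fell, with a median of 0.59. Cpt1a, the gatekeeper enzyme of mitochondrial import, was 27.7, 31.6 and 27.6 TPM against 11.5, 9.55 and 6.18 TPM, and the trifunctional protein genes Hadha and Hadhb rose 1.65-fold and 1.55-fold.

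Cholesterol synthesis leaned lower, with 9 of 20 genes lower and 3 higher, and 13 lower and 2 higher after median-of-ratios scaling. For this and the counts that follow, the shares over all described genes were 19.6% lower and 32.5% higher. Of 9 polyamine and arginine genes 6 fell and 2 rose. Smox, spermine oxidase, was 25.5, 22.3 and 27.6 TPM against 206, 217 and 211 TPM, and Odc1, the first step of polyamine synthesis, fell 2.3-fold. In the unfolded protein response 12 of 20 genes fell and none rose, and among targets of the amino acid stress factor ATF4 10 of 14 fell and 1 rose. Of 11 serine and one-carbon genes 6 fell and 3 rose, among them Tyms, thymidylate synthase, 2.46-fold. Of 20 purine and pyrimidine synthesis genes 7 rose and 7 fell, and 5 rose and 9 fell after median-of-ratios scaling. Respiratory chain genes shifted little: 14 of 30 nuclear-encoded ones rose and 4 fell with a median of 0.22, but 5 rose and 4 fell after median-of-ratios scaling. Of 13 mitochondrially encoded mRNAs 5 rose and none fell, so 38.5% were called, below the 52.0% of all described genes.

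Cell cycle genes rose, most by less than 2-fold. Of 26 mitosis and spindle genes 24 rose and none fell, with a median of 0.60, and of 26 DNA replication genes 20 rose and 1 fell, with a median of 0.62. The counts of rises were 22 and 18 after median-of-ratios scaling. Ccnb2, a mitotic cyclin, was 124, 126 and 117 TPM in the knockout and 51.4, 58.4 and 56.3 TPM in the wild type, and Kif11, a spindle motor, was 39.05, 53.9 and 41.6 TPM against 23.8, 18.6 and 15.7 TPM. Rpa2, a single-strand DNA binding protein, was 94.9, 96.5 and 83.3 TPM against 44.5, 43.5 and 40.5 TPM. The groups did not overlap for any of the 3. Cdkn1a, encoding the cyclin-dependent kinase inhibitor p21, was 21.2, 21.1 and 18.7 TPM against 151, 153 and 126 TPM, a 7.03-fold fall (limma adjusted p = 4.95e-12). Other G1 genes differed among themselves: Cdk6 fell 2.11-fold, the inhibitor gene Cdkn2c rose 2.68-fold and Ccnd2 was level at 227 ± 15.8 and 229 ± 32.9 TPM. Of 14 p53 targets 7 fell and 4 rose, with Sesn1 up 6.04-fold. Of 21 survival and apoptosis genes 11 rose and 6 fell (81.0% called, against 52.0% of all described genes). The BH3-only genes Bmf, Bbc3 and Bcl2l11 rose 7.38-fold, 2.35-fold and 1.75-fold, while Bcl2 fell 1.53-fold.

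Several of the widest differences lay outside these programs. Tgm2, transglutaminase 2, was 0.09, 0.13 and 0.02 TPM in the knockout and 227, 232 and 173 TPM in the wild type, Timp1, a metalloproteinase inhibitor, 1.2, 0.88 and 0.26 TPM against 399, 426 and 471 TPM, and Upp1, uridine phosphorylase, 1.36, 1.9 and 1.08 TPM against 285.4, 326 and 298 TPM. Ltb4r1, the leukotriene B4 receptor, was 0.18, 0.13 and 0 TPM against 140.0, 153 and 153 TPM. Ly6g fell from 88.2 ± 8.1 to 0.07 ± 0.121 TPM and Ly6c1 from 173 ± 4.98 to 2.29 ± 2.38 TPM, though reads may be split among their paralogs. In the other direction Ccl1, the ligand of CCR8, was 139.8, 131 and 134 TPM against 0.41, 0.2 and 0 TPM, and its receptor gene Ccr8 rose 2.61-fold. Lcn10, a lipocalin, was 78.4, 67.8 and 70.3 TPM and listed at 0 in every wild-type library. Drc1, a ciliary dynein regulator, was 51.7, 44.7 and 51.5 TPM against 0.1, 0.3 and 0.29 TPM, Nrgn, neurogranin, 35.6, 28.8 and 29.6 TPM against 0.2, 0.1 and 0.22 TPM, and Asic3, an acid-sensing ion channel, 33.3, 36.3 and 31.8 TPM against 0.61, 0.18 and 0.09 TPM. Tmsb15b2, a thymosin gene, was 39.1, 75.2 and 99.4 TPM against 22.1, 0 and 0 TPM and was called (limma adjusted p = 0.00719) on uneven libraries, and its copy Tmsb15b1 shares sequence with it.

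Using cut-offs chosen after the values were seen, 41 genes were at 5 TPM or more in every knockout library and below 0.5 TPM in every wild-type library, 29 of them protein-coding, and 33 showed the opposite, 30 of them protein-coding. The first set held Spib, a transcription factor of B cells and plasmacytoid dendritic cells, at 18.4 ± 1.59 against 0.0733 ± 0.0451 TPM, Rasgrp3 at 23 ± 6.35 against 0.0333 ± 0.0351 TPM, Wnt10b at 15.3 ± 1.28 against 0.337 ± 0.129 TPM and Nod1, a bacterial peptidoglycan sensor, at 11 ± 1.17 against 0.0967 ± 0.134 TPM. The second held Cysltr1, a cysteinyl leukotriene receptor, at 0.213 ± 0.0577 against 71.7 ± 17.4 TPM, Procr, the protein C receptor, at 0.137 ± 0.195 against 67.7 ± 6.96 TPM, Itga7 at 0.09 ± 0.07 against 56.4 ± 9.93 TPM, and Pdpn, podoplanin, at 0.187 ± 0.106 against 19.9 ± 1.45 TPM.

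At the other extreme, the 5 genes at 100 TPM or more in both groups with the smallest difference were Dbi, Rpl32, Rps27, Ccnd2 and Eif3e. Dbi, an acyl-CoA binding protein, was 254, 258 and 258 TPM against 262, 234 and 275 TPM and Eif3e, a translation initiation subunit, 296, 336 and 282 TPM against 329.6, 294 and 290.2 TPM. The most abundant transcript outside ribosomal protein and mitochondrial genes was Eef1a1, the translation elongation factor, in both groups (13428 ± 391 and 13989 ± 134 TPM). Tmsb10 was second in both, and Tpt1, a translationally controlled growth protein, fell 1.55-fold. Actb was 3821 ± 136 against 4254 ± 409 TPM and was not called with TPM as deposited (limma adjusted p = 0.0986), but was called lower after median-of-ratios scaling and without the third wild-type library (-0.29 and -0.22).

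Around Stat3 on chromosome 11, 47 other described genes lay within 1 Mb, of which 22 were higher and 5 lower (57.4% called, median 0.25, against 52.0% and 0.13 over all described genes). Cavin1 (chr11:100956733-100970887, minus strand), which forms caveolae, lies 17.2 kb from Stat3 and, like Jup and Krt17 farther away, was chosen after its values were seen. It was 18.4, 19.3 and 18.7 TPM in the knockout and 0.21, 0.37 and 0.26 TPM in the wild type, a 67.1-fold rise (limma adjusted p = 9.6e-11), and averaged 0.34 TPM in the Treg cultures and 0.27 TPM in the TH17 cultures given Srci1. It was thus above 18 TPM only in the knockout libraries among these 4 groups. Jup, encoding plakoglobin, and Krt17, a keratin, 487.3 and 624.1 kb away on the other side, rose from 2.08 ± 0.42 to 17.2 ± 0.963 TPM and from 0.0533 ± 0.0503 to 3.49 ± 0.172 TPM, and Dhx58, an RNA sensor of the interferon-stimulated list, 3.34-fold. Of 4 genes that differ between laboratory mouse strains, Nnt rose from 9.52 ± 3 to 23.8 ± 3.45 TPM, Entpd4 and Glo1 fell 2.21-fold and 1.21-fold, and Ide was 29.6, 33.8 and 28.6 TPM against 33.8, 30.6 and 25.7 TPM without a call. The mouse strain of either group is not given in the sources used here, and the part of strain background in the differences was not tested.

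**Figure D5:**
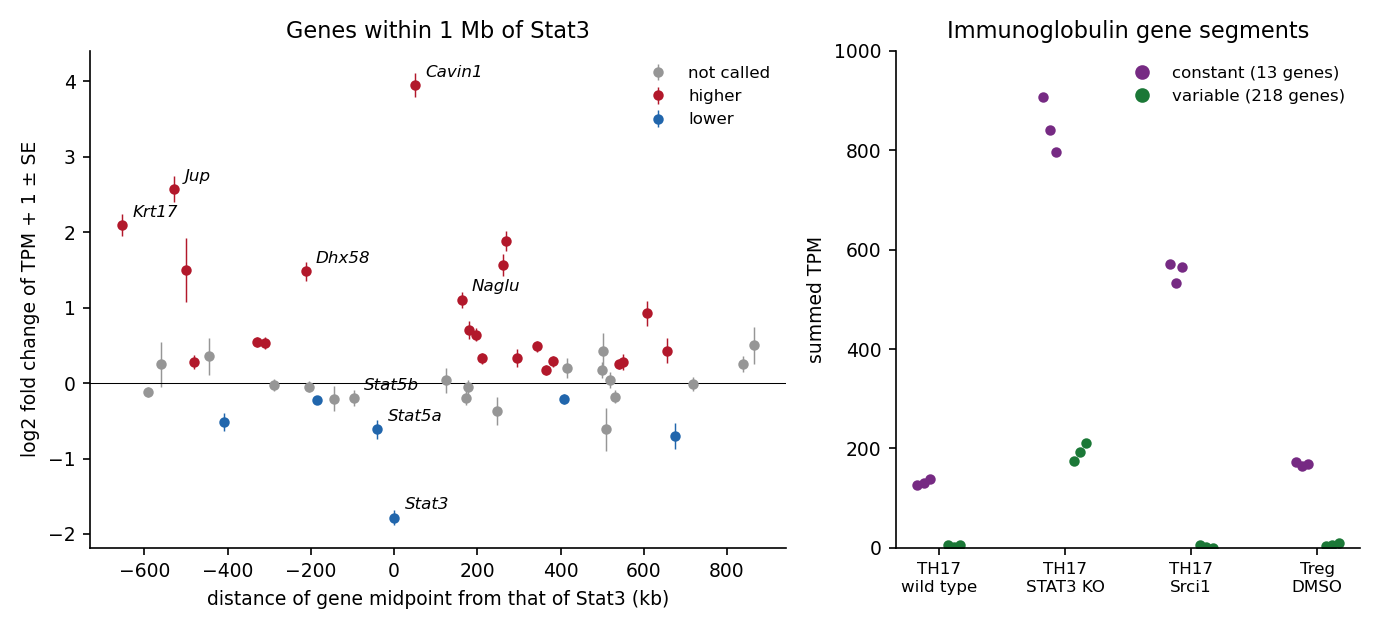
Left, log2 fold change of TPM + 1 with SE for each described gene within 1 Mb of Stat3, by distance of its midpoint in kb, with Cavin1 at 3.95 and Stat3 at -1.78. Right, summed TPM of immunoglobulin constant (purple) and variable (green) genes in each library of 4 groups, 3 libraries each; the variable genes pass 170 TPM only in the 3 knockout libraries.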

How the data were processed

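The libraries were poly(A)-selected RNA (TRIzol, NEBNext poly(A) and Ultra II reagents), per the labels' protocols. The authors deposited 1 table of TPM values per gene and library; reads were handled with STAR 2.7.9a and RSEM 1.3.3 on GRCm38, per the submitters' processing notes. Neither depth nor strand setting is given in the sources used here. Log2(TPM + 1) was fitted with limma 3.58.1 (variance trend, R 4.3.3) over all 15 libraries with 5 group means, for 12800 genes at 1 TPM or more in at least 3 libraries, with Benjamini-Hochberg adjustment over all of them. The script was tested on simulated data. Medians of lists are of log2 fold changes. Gene positions are those of the GENCODE annotation on GRCm38 and promoters are from RefSeq (GRCm38.p6).

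The members and gene lists were chosen with earlier results of these data known. Genes were named if they were among 16 fixed TH17 and STAT genes, among the 10 largest called changes in each direction above 5 TPM without overlap, among the strongest called members of a list or needed to describe it, among the 5 least changed, or among the 10 most abundant in a group. Genes outside this rule are marked as chosen after their values were seen. Alternatives covered the pseudocount, filters, scaling, the libraries in the fit, array weights, a replicate block and each library left out. Some genes that the rule names are not reported here.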

Additional observations from a re-analysis of the deposited data

How the results depend on the processing

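The counts of 3858 higher and 2322 lower genes stayed within 1.5 times under every alternative run, and no call turned to the other direction. With each library left out in turn, 3262 to 4012 genes were higher and 2013 to 2596 lower, and 1003 to 1230 and 713 to 820 at 2-fold. With the replicate block, 2735 were higher and 1673 lower. Same-numbered libraries had correlations of deviations of -0.171, 0.11 and 0.063, and differently numbered ones of -0.301 to 0.254. Deviations from a mean of 3 libraries constrain one another, so these values cannot settle whether the numbers pair the samples. Median-of-ratios scaling gave 3194 higher and 3135 lower, quantile normalization 3255 and 3079, and array weights 3260 and 2430. Of the 6180 calls, 5514 kept their direction and call after median-of-ratios scaling. With a fit on the 6 compared libraries alone, 4758 did. Of 3655 values for 229 named genes, 3605 kept direction and side of the threshold, 29 lost the call and 21 gained it. Bst2 and Vhl lost it most often, 9 times each. Ebi3 lost it 3 times. Bcl2 and Cd4 lost it with only the 6 libraries in the fit and with the replicate block (limma adjusted p above 0.05). The cause of these changes was not tested. TPM keeps no depth, so the counting error of genes near 1 TPM could not be estimated.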
